A study of Mus musculus with 4 samples.

Results

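Collagen genes were taken as every gene symbol in the count tables made of Col, a chain number, the letter a and a further number, which gave 44 of 24015 listed genes. They were followed in 4 RNA-seq libraries of mouse hematopoietic stem and progenitor cells (HSPC) purified by cell sorting. The libraries of caNIK replicates 1 and 2 came from Vav-iCre mice crossed to the Rosa-loxp-STOP-loxp-NIK line. In these animals a mutant form of the kinase NIK that TRAF3 cannot target is switched on throughout the blood system. Control replicates 1 and 2 were labelled only as control. The sources used here do not say whether the control mice carried either allele, nor the strain, age or pooling of the animals, the tissue or the sort markers. The Cre of this line is driven by regulatory sequence of Vav, a gene of blood cells, so the kinase is expected in all hematopoietic lineages and not in stem cells alone. The labels do not say whether the 2 libraries of a group came from separate animals or pools, so p-values measure only the spread between these libraries.

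Collagens are secreted or membrane proteins whose chains wind around each other into a rope-like helix, along stretches in which glycine recurs at a fixed step. Fibrillar collagens build the fibrils of bone, tendon, skin and cartilage, fibril-associated collagens (FACIT) coat those fibrils, and network collagens form sheets such as the basement membrane. In bone marrow most collagen is made by mesenchymal stromal cells, osteoblasts and endothelium. Blood progenitors are known more for binding collagen, through integrins and other receptors, than for making it.

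Library totals lay between 18574452 and 23162766 counts. Map3k14, which encodes NIK, had 177 and 192 CPM (a count level corrected for the size of the library) in caNIK HSPC, against 30.2 and 25.0 CPM in control HSPC, with both caNIK libraries standing far above both controls (log2 fold change 2.74 ± 0.17, SE; edgeR adjusted p = 0.00023). All 10 HSPC genes looked up were detected in every library, among them Kit with 557 and 506 CPM in caNIK cells and 610 and 613 CPM in control cells. Genes among them that passed the test included Cd34 and Runx1, which were lower in caNIK cells, and Ly6a, which was higher. Across the whole table, 3129 of 14191 tested genes passed edgeR's quasi-likelihood test at an adjusted p under 0.05, which is 22.0% (13.8% higher and 8.21% lower in caNIK).

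The control libraries differed from each other in a subset of collagen genes. Col1a1, the main chain of the type I fibrils of bone and skin, was counted 1961 and 1300 times in caNIK replicates 1 and 2, against 39 and 1496 times in control replicates 1 and 2. As levels these were 105 and 62.6 CPM in caNIK HSPC, against 2.02 and 63.7 CPM in control HSPC. Control replicate 1 therefore stood alone at the low end, and control replicate 2 lay inside the caNIK range. Among 29 collagen genes with enough counts to be tested, 5 (17.2%) were at least 4-fold higher in control replicate 2 than in control replicate 1 on the log2(CPM + 0.5) scale, against 0.437% of all tested genes. These were Col1a1 (ratio of CPM 31.5), Col11a1 (20.0), Col1a2 (9.61), Col6a3 (8.83) and Col5a1 (5.89). By the plain ratio of CPM, without the added 0.5, Col6a2 (7.39), Col12a1 (7.19), Col5a2 (5.44) and Col23a1 (4.31) were also past 4-fold. Col22a1 and Col15a1 had 0 counts in control replicate 1. On the log2(CPM + 0.5) scale no tested collagen gene was 4-fold lower in control replicate 2 (0.691% of all tested genes were). None was 4-fold apart in either direction between the caNIK libraries on that scale. There 0.0352% of tested genes were that much higher and 0.282% that much lower in replicate 2. By the plain ratio, Col9a2 (0.192) and Col23a1 (0.2) were more than 4-fold lower in caNIK replicate 2.

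Genes of stromal cells moved with this split only in part. Sparc, a collagen-binding matrix protein, had 24.4 and 23.9 CPM in caNIK replicates 1 and 2, against 2.70 and 22.1 CPM in control replicates 1 and 2. Cxcl12, the chemokine of marrow stroma that holds stem cells in the niche, had 5.21 and 17.7 CPM in caNIK replicates 1 and 2, against 1.30 and 30.3 CPM in control replicates 1 and 2. Both genes were lowest in control replicate 1, like Col1a1. Of 31 tested markers of stroma, osteoblasts, chondrocytes, endothelium and smooth muscle, 2 were 4-fold higher in control replicate 2 than in control replicate 1. These were Cxcl12 and the endothelial scavenger receptor gene Stab2, on the log2(CPM + 0.5) scale, where 0.437% of all tested genes were that much higher. Of the 31 markers 0 were 4-fold lower, against 0.691% of all tested genes. The 39 markers of these cells summed to 463 and 468 CPM in caNIK libraries and to 273 and 344 CPM in control libraries, and 0 of the 39 were at 0 in all 4 libraries. Without Fn1, which is described further on, the sums were 238 and 166 CPM in caNIK libraries and 258 and 325 CPM in control libraries. These sums still held Postn and Emcn, also described further on and lower in caNIK cells, so they give no direction for the other markers. Of the 12 mesenchymal markers, Lum, Dcn, Pdgfra and Mfap5 stayed under 1 CPM in every library, with Lum and Dcn at 0 in control replicate 1. Others stood higher, such as the receptor gene Pdgfrb with 57.2 and 29.2 CPM in caNIK libraries, against 51.2 and 51.1 CPM in control libraries, and the matrix gene Fbln1 with 6.12 and 2.80 CPM, against 8.97 and 11.5 CPM. Of the 6 osteoblast markers, Spp1 had 10.7 and 6.22 CPM in caNIK libraries, against 7.72 and 7.45 CPM in control libraries, and Alpl lay between 1.40 and 2.25 CPM. Ibsp, bone sialoprotein, had 2.09 and 0.675 CPM in caNIK replicates 1 and 2, against 0 and 1.49 CPM in control replicates 1 and 2. Dmp1 and Sp7 were also at 0 in control replicate 1 alone, and Bglap had its lowest level there. Genes outside the stroma set the same library apart. The 6 epithelial markers summed to 31.8 and 24.1 CPM in caNIK replicates 1 and 2, against 110.9 and 34.8 CPM in control replicates 1 and 2, with Epcam at 33.3 CPM in control replicate 1 and 4.13 CPM in control replicate 2. Every library held both Xist, which is made from the inactive X chromosome of females, and 4 Y-linked genes. Xist had 1189 and 1160 CPM in caNIK replicates 1 and 2, against 1970 and 902 CPM in control replicates 1 and 2, and the Y-linked Eif2s3y had 54.6 and 39.9 CPM, against 11.2 and 37.7 CPM. Control replicate 1 was the highest library for Xist and the lowest for each of the 4 Y-linked genes. What part stromal carry-over or these differences had in the collagen values was not tested, and in bulk RNA fewer cells of a type and less RNA per cell cannot be told apart.

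**Figure D1:**
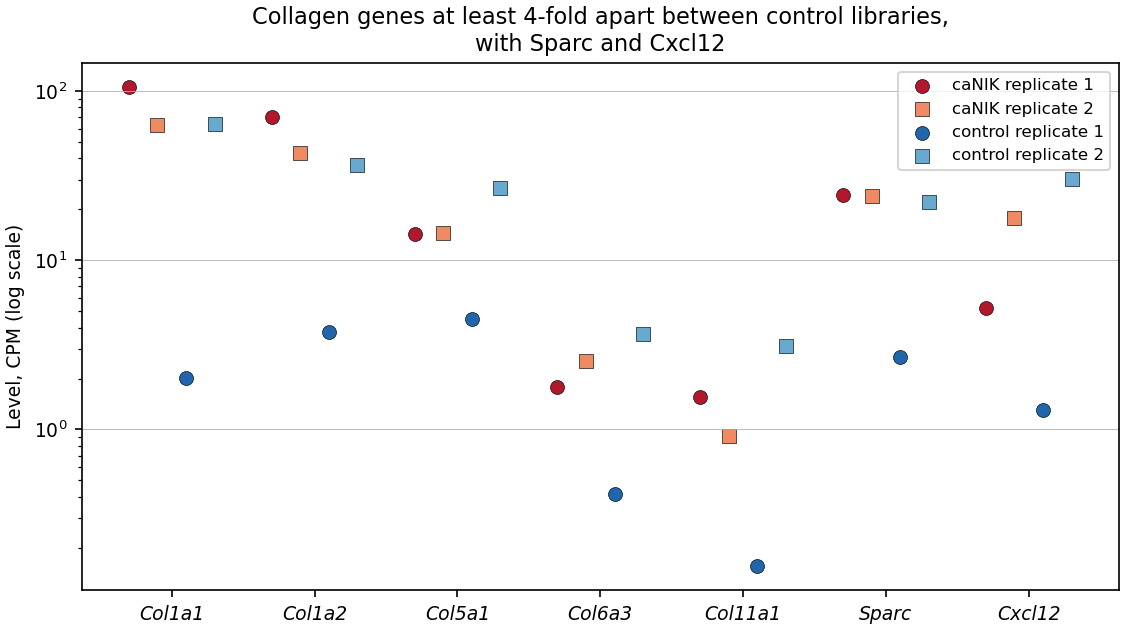
Level in CPM on a log axis of the 5 collagen genes at least 4-fold higher in control replicate 2 than in control replicate 1 on the log2(CPM + 0.5) scale, with Sparc and Cxcl12 beside them. Each point is 1 library. Control replicate 1 is the lowest point for every gene drawn (2.02 CPM for Col1a1), while control replicate 2 lies close to, within or above the caNIK range. The collagen genes were chosen by this difference, and Sparc and Cxcl12 were picked from the companion and marker lists. The shared low point therefore follows from the choice of genes.

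In caNIK HSPC, 4 collagen genes passed the test as higher and 3 as lower. Col14a1, Col12a1, Col5a2 and Col18a1 were higher. Col10a1, Col2a1 and Col4a2 were lower. Of the 29 tested genes this is 13.8% higher, against a background of 13.8%, and 10.3% lower, against a background of 8.21%, so the share of collagen genes called was close to that of all genes. The median log2 fold change of the tested collagen genes was 0.40, against 0.0038 for all tested genes, and 11 of the 29 (37.9%, background 35.8%) had an unadjusted p under 0.05. Both caNIK libraries lay above both control libraries in 12 of the 29 (41.4%, background 33.2%) and below them in 7 (24.1%, background 31.6%). The other 15 of the 44 genes had too few counts and were not tested.

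**Figure D2:**
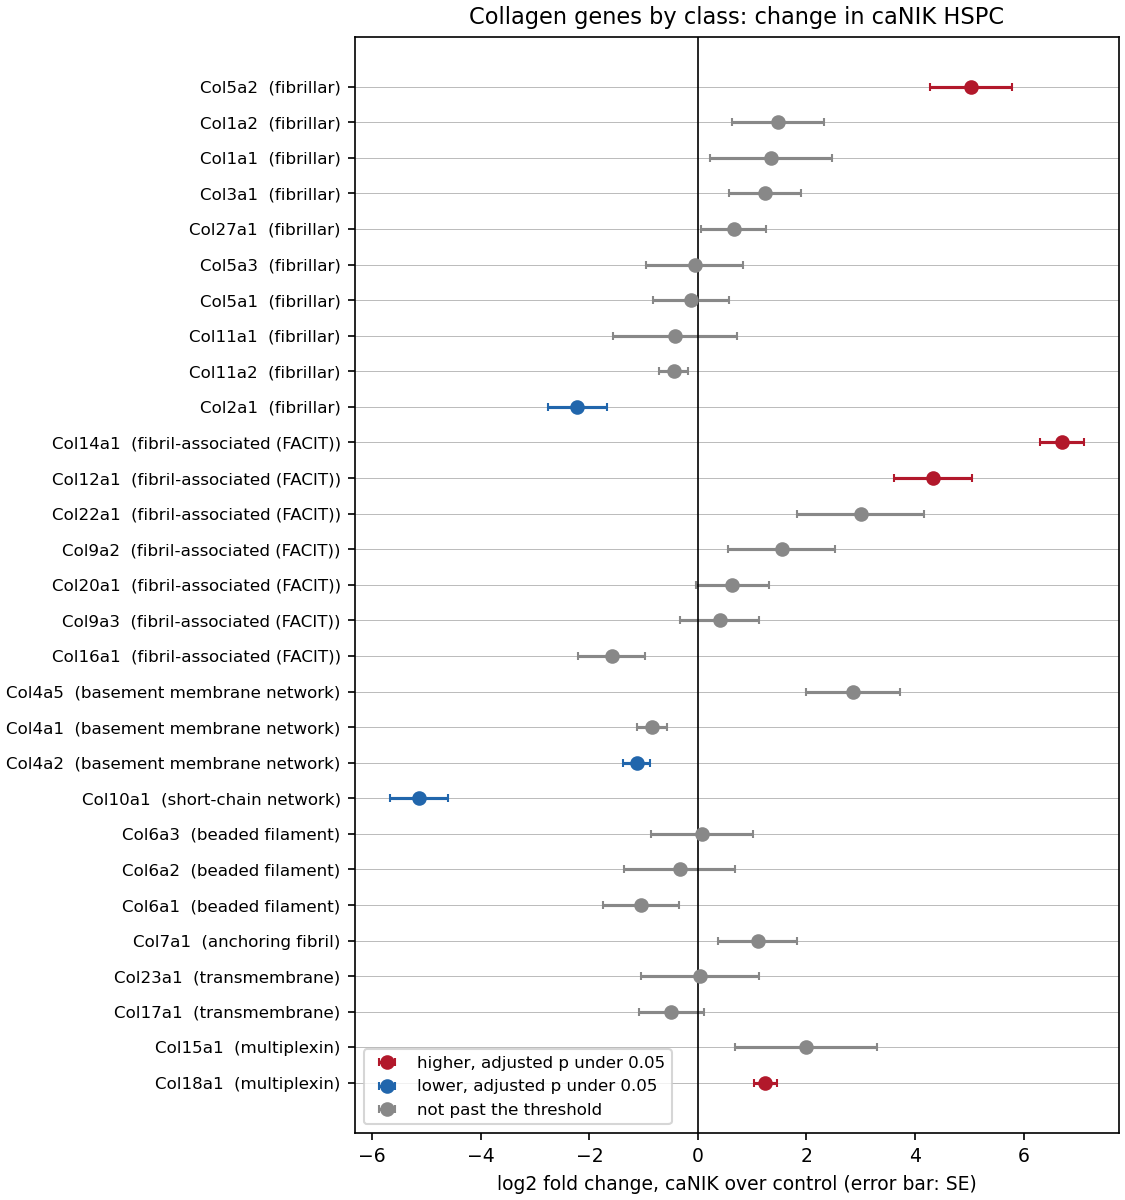
Log2 fold change of caNIK over control for the 29 tested collagen genes, grouped by class, with SE as error bars; red and blue mark genes past the threshold as higher and lower, grey the rest. The called genes are spread over several classes, and Col14a1 (6.71) and Col10a1 (-5.14) are the extremes.

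**Figure D3:**
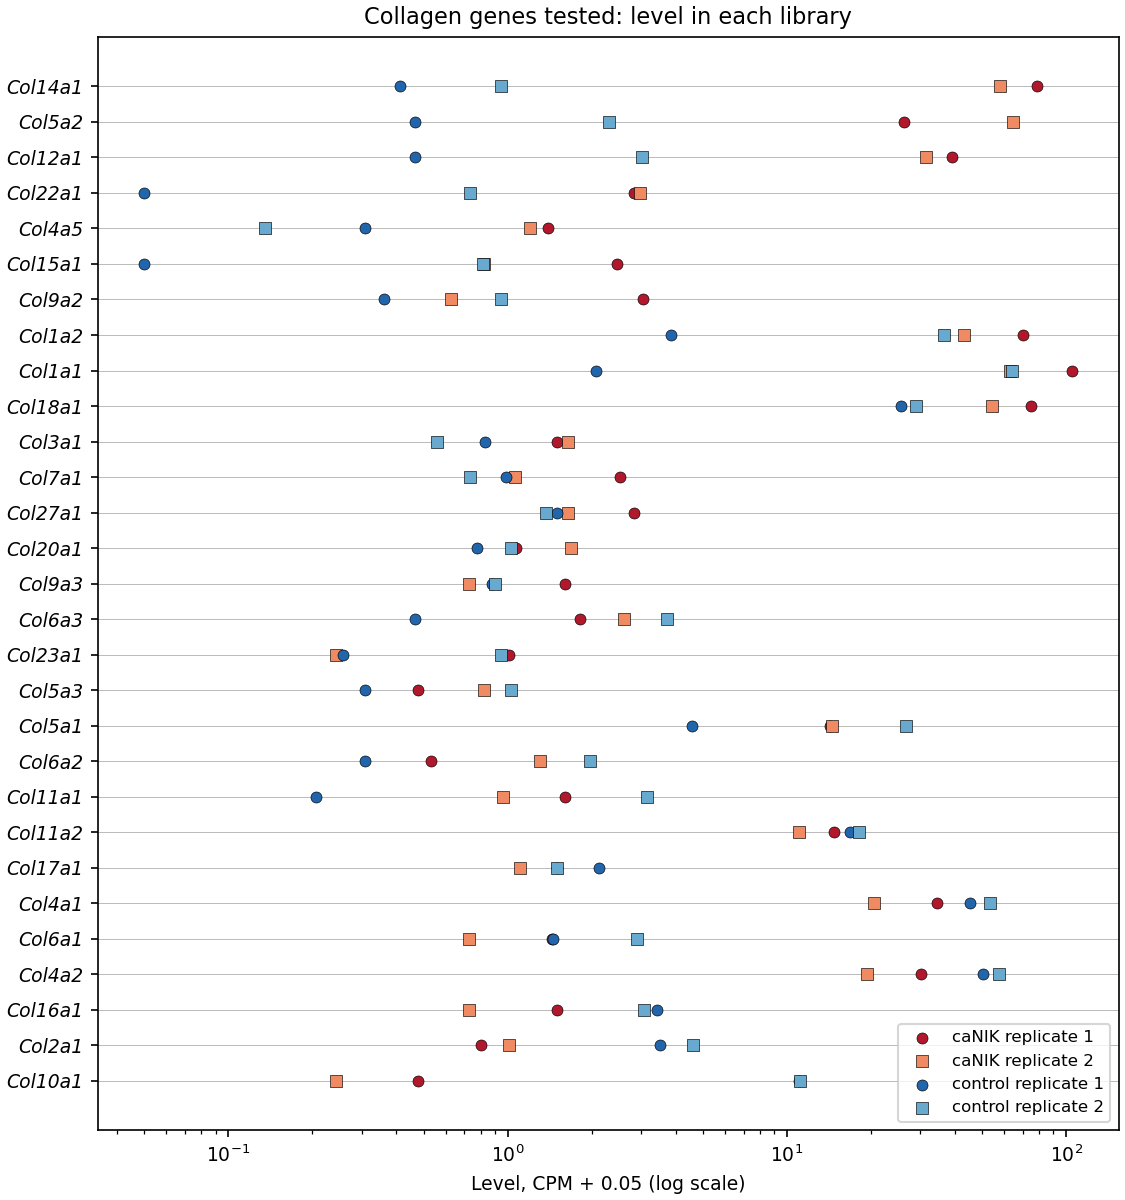
Level of the same 29 genes in each of the 4 libraries, as CPM + 0.05 on a log axis, ordered by log2 fold change from highest to lowest. The caNIK points stand clear of the control points for Col14a1, Col5a2 and Col12a1 at the top and for Col10a1 at the bottom, whereas control replicate 1 alone is low for Col1a1 and Col1a2.

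The largest rise was in a fibril-associated collagen, Col14a1. Col14a1, whose product binds the surface of type I fibrils in tendon and skin, was counted 1468 and 1202 times in caNIK HSPC, against 7 and 21 times in control HSPC. Its level was 78.8 and 57.9 CPM in caNIK cells, against 0.363 and 0.894 CPM in control cells, and the groups lay far apart. The log2 fold change was 6.71 ± 0.40 (SE; edgeR adjusted p = 0.00021), a 105-fold difference, and ran from 6.23 without control replicate 1 to 7.53 without control replicate 2. Col12a1, a close relative that also coats type I fibrils, was counted 728 and 651 times in caNIK HSPC, against 8 and 70 times in control HSPC. That is 39.1 and 31.4 CPM in caNIK cells, against 0.415 and 2.98 CPM in control cells. The groups did not overlap, although the control libraries differed 7.19-fold. The rise was 4.34 ± 0.72 on the log2 scale (SE; edgeR adjusted p = 0.0078), with 3.54 without control replicate 1 and 6.39 without control replicate 2.

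Other fibril-associated genes were low and none of them passed. Col22a1, a collagen of tissue junctions such as that between muscle and tendon, had 52 and 61 counts in caNIK HSPC, against 0 and 16 in control HSPC (2.79 and 2.94 CPM, against 0 and 0.681 CPM). Both caNIK libraries were above both controls, but the log2 fold change of 2.999 ± 1.16 had an edgeR adjusted p of 0.12. It passed without control replicate 2 (edgeR adjusted p = 0.00063) and with no low-count filter (0.031). Col16a1 had 27 and 14 counts in caNIK cells, against 65 and 71 in control cells, -1.59 ± 0.61 on the log2 scale (SE; edgeR adjusted p = 0.11). Col20a1 (0.64 ± 0.67) and the type IX chains Col9a2 (1.54 ± 0.98) and Col9a3 (0.40 ± 0.72), which belong to cartilage fibrils, stayed at or under 3.01 CPM in every library. Col9a1, which makes the other type IX chain, had 4 and 10 counts in caNIK and 3 and 12 in control libraries and was not tested. Col19a1 was not tested either, with 0 and 3 counts in caNIK and 13 and 2 in control libraries.

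Among fibrillar collagens Col5a2 was higher, Col2a1 was lower, and the type I chains depended on the control library. Col5a2 encodes a chain of type V collagen, which is built into type I fibrils and limits their width. It was counted 487 and 1341 times in caNIK HSPC, against 8 and 53 times in control HSPC, or 26.1 and 64.6 CPM in caNIK cells, against 0.415 and 2.26 CPM in control cells. The groups lay apart, although the libraries of each group differed. Its log2 fold change was 5.04 ± 0.76 (SE; edgeR adjusted p = 0.0053), from 4.24 without caNIK replicate 2 to 6.75 without control replicate 2. The partner chains of type V collagen gave no such difference. Col5a1 had 266 and 299 counts in caNIK cells, against 87 and 624 in control cells, or 14.3 and 14.4 CPM in caNIK cells, inside the control range of 4.51 to 26.6 CPM. Its log2 fold change was -0.12 ± 0.70 (SE; edgeR adjusted p = 0.93), whereas without control replicate 2 it was 1.67 ± 0.52 and passed (edgeR adjusted p = 0.018). Col5a3 had 8 and 16 counts in caNIK and 5 and 23 in control libraries (-0.06 ± 0.90). Col3a1, which lies next to Col5a2 in the RefSeq gene order and is a main collagen of fibroblasts, had 27 and 33 counts in caNIK HSPC, against 15 and 12 in control HSPC. For Col3a1 the change was 1.24 ± 0.66 on the log2 scale (SE; edgeR adjusted p = 0.24), and it stayed at or under 1.59 CPM in each library.

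Type I collagen is made of chains from Col1a1 and Col1a2. Col1a2 was counted 1302 and 890 times in caNIK HSPC, against 73 and 854 times in control HSPC, or 69.9 and 42.9 CPM in caNIK cells, against 3.78 and 36.4 CPM in control cells. As with Col1a1, control replicate 1 alone was low. With all libraries neither gene passed: the log2 fold change was 1.35 ± 1.13 for Col1a1 and 1.48 ± 0.84 for Col1a2 (SE; edgeR adjusted p = 0.45 and 0.26). Without control replicate 2 both passed, with 5.37 ± 0.44 for Col1a1 and 3.90 ± 0.42 for Col1a2, and without control replicate 1 they were 0.38 and 0.61 and did not pass. The statement for type I collagen thus rested on which control library was used. The chains together made up 33.8% and 26.3% of all collagen CPM in caNIK replicates 1 and 2, against 3.23% and 30.1% in control replicates 1 and 2.

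Col2a1, the fibrillar collagen of cartilage, had 14 and 20 counts in caNIK HSPC, against 67 and 107 in control HSPC. The levels of 0.751 and 0.964 CPM in caNIK cells were below 3.47 and 4.56 CPM in control cells. It was 4.65-fold lower (log2 fold change -2.22 ± 0.55, SE; edgeR adjusted p = 0.031), and at these low counts the call was lost without caNIK replicate 1 (edgeR adjusted p = 0.086), caNIK replicate 2 (0.072) or control replicate 2 (0.11). Col11a1 and Col11a2, minor chains of cartilage fibrils, did not pass. Col11a1 had 29 and 19 counts in caNIK cells, against 3 and 73 in control cells, and Col11a2 had 273 and 228 counts in caNIK cells, against 324 and 426 in control cells. The difference for Col11a2 was -0.45 ± 0.27 (SE; edgeR adjusted p = 0.28), with both caNIK levels, 14.7 and 11.0 CPM, below the control levels of 16.8 and 18.1 CPM. Col27a1, another cartilage-linked fibrillar gene, stayed at or under 2.79 CPM in all libraries (0.66 ± 0.59), and Col24a1 had 2 counts in all, both in control replicate 2.

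**Figure D4:**
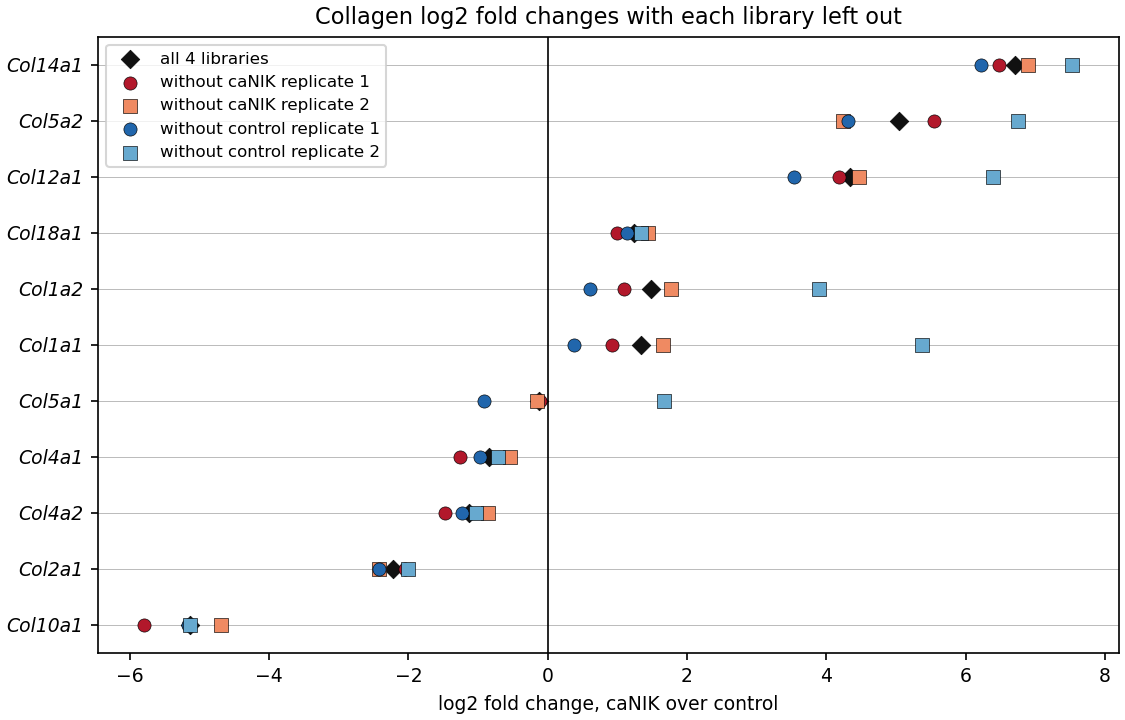
Log2 fold change of caNIK over control for 11 collagen genes with all 4 libraries (diamonds) and with each library left out in turn. Col14a1, Col5a2, Col12a1 and Col18a1 stay above 0 and Col10a1, Col4a2, Col4a1 and Col2a1 below 0 in every fit drawn, while Col1a1, Col1a2 and Col5a1 shift to 5.37, 3.90 and 1.67 without control replicate 2.

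Col10a1 was the collagen with the largest fall. It encodes a short-chain, network-forming collagen best known from hypertrophic cartilage of the growth plate. It was counted 8 and 4 times in caNIK HSPC, against 212 and 260 times in control HSPC, so that levels were 0.429 and 0.193 CPM in caNIK cells, against 11.0 and 11.1 CPM in control cells. The control libraries were nearly equal and the groups stood far apart. It was 35.2-fold lower (log2 fold change -5.14 ± 0.54, SE; edgeR adjusted p = 0.0013), from -5.79 without caNIK replicate 1 to -4.68 without caNIK replicate 2. In the RefSeq annotation Col10a1 lies within Nt5dc1, whose own log2 fold change was -0.28 (edgeR adjusted p = 0.27). The strand setting of the counting is not given, so reads of overlapping genes cannot be told apart. The other short-chain genes, Col8a1 (0 and 0 counts in caNIK, 3 and 1 in control) and Col8a2 (5 and 0 in caNIK, 1 and 2 in control), were not tested.

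Of the basement membrane genes Col4a2 was lower, and its partner Col4a1 lay on the same side without passing. Their products form the common type IV network under endothelium and epithelium, and the genes stand head to head on chromosome 8. Col4a2 was counted 561 and 401 times in caNIK HSPC, against 973 and 1347 times in control HSPC, and Col4a1 was counted 643 and 426 times in caNIK HSPC, against 874 and 1251 times in control HSPC. In CPM, Col4a2 had 30.1 and 19.3 in caNIK cells, against 50.4 and 57.4 in control cells, and Col4a1 had 34.5 and 20.5 in caNIK cells, against 45.3 and 53.3 in control cells. For each gene both caNIK libraries were below both controls, and caNIK replicate 2 was the lowest. Col4a2 passed (log2 fold change -1.13 ± 0.25, SE; edgeR adjusted p = 0.021) and Col4a1 did not (-0.84 ± 0.27; edgeR adjusted p = 0.070). Col4a1 passed in DESeq2 (adjusted p = 0.032), with no low-count filter (0.017), with a replicate block (0.032), without caNIK replicate 1 (0.011) and without control replicate 1 (0.035), but not without caNIK replicate 2 (0.13) or control replicate 2 (0.14), in edgeR unless named. Both genes share their start region, so some reads there could fall to either.

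The X-linked type IV genes stood at low counts. Col4a5, a chain of kidney and other specialised basement membranes, had 25 and 24 counts in caNIK HSPC, against 5 and 2 in control HSPC, or 1.34 and 1.16 CPM in caNIK cells, against 0.259 and 0.0852 CPM in control cells. The groups did not overlap, but the log2 fold change of 2.85 ± 0.87 had an edgeR adjusted p of 0.060. Its neighbour Col4a6 had 0 counts in all 4 libraries. Col4a3 (0 and 9 counts in caNIK, 14 and 2 in control) and Col4a4 (1 and 2 in caNIK, 0 and 1 in control) were not tested.

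Col18a1, a multiplexin of basement membranes whose end fragment is endostatin, was higher in caNIK cells. It was counted 1389 and 1127 times in caNIK HSPC, against 492 and 678 times in control HSPC, or 74.5 and 54.3 CPM in caNIK cells, against 25.5 and 28.9 CPM in control cells. The groups were apart in each library. The rise was 1.24 ± 0.21 on the log2 scale (SE; edgeR adjusted p = 0.0080), a 2.37-fold difference. The other multiplexin, Col15a1, had 45 and 16 counts in caNIK cells, against 0 and 18 in control cells, and did not pass (edgeR adjusted p = 0.33); without control replicate 2 it passed (edgeR adjusted p = 0.011), with no read in the control library that was left.

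Promoter sequence is shown for the type IV pair, whose levels lay on the same side and whose starts adjoin, and for Col10a1 and Col18a1, called genes of opposite direction. It comes from the RefSeq promoter table. Of the 44 collagen genes, 35 had an entry in that table, with 38 start sites between them. The 250 bases before the start are given for GRCm38.p6, 5′ to 3′ on the strand of the gene, with matches to 4 motifs in capitals.
Col4a1 (chr8:11312827-11313076, minus strand): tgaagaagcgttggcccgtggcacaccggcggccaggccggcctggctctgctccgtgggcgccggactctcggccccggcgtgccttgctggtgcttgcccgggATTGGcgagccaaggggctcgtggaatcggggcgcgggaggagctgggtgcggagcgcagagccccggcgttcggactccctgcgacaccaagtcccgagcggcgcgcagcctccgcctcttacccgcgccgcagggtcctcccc
Col4a2 (chr8:11312555-11312804, plus strand): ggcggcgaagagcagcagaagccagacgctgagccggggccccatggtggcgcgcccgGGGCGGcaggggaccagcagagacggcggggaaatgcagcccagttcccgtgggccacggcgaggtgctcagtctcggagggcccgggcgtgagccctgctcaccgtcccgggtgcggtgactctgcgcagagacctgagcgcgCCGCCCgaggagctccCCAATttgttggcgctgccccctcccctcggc
Col10a1 (chr10:34389731-34389980, plus strand): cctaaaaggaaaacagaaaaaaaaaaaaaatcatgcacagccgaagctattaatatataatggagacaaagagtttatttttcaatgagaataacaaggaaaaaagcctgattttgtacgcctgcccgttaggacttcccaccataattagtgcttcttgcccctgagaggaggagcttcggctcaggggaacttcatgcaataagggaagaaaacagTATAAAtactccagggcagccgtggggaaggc
Col18a1 (chr10:77166531-77166780, minus strand, the upstream of its 2 starts): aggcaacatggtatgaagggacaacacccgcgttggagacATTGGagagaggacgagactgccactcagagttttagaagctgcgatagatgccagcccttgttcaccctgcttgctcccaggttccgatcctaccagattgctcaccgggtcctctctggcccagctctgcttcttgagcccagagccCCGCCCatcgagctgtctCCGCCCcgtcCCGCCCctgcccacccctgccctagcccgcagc
The motifs were searched on both strands: TATAAA (the TATA box, in 12.3% of 32536 distinct promoter windows of this length), CCAAT (33.8%), GGGCGG (the GC box, 33.0%) and the kappaB consensus that NF-kB binds (3.92%). Col10a1 held a TATA box 32 bases before its start. The windows of Col4a1, Col4a2 and Col18a1 held no TATA box. Each had 1 CCAAT match, and GC boxes numbered 0 in Col4a1, 2 in Col4a2 and 3 in Col18a1. The other Col18a1 start, not printed, held no match to any of the 4 motifs. By the coordinates, each type IV window lies past the start of its partner gene. None of the 4 printed windows held the kappaB consensus. It was found in 4 of the 38 collagen windows (Col9a1, Col9a2, Col27a1 and Col6a4, background 3.92%). Of the called genes, Col14a1, Col12a1, Col5a2 and Col2a1 had no entry in the promoter table. Their windows were not searched, so the absence of the kappaB consensus does not cover them. These matches are descriptions of the letters in the window and do not show binding.

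Type VI collagen, a beaded filament found around many cells, was low and did not pass. Col6a3 had 33 and 53 counts in caNIK HSPC, against 8 and 86 in control HSPC (log2 fold change 0.08 ± 0.93), and Col6a2 had 9 and 26 in caNIK cells, against 5 and 45 in control cells (-0.33 ± 1.02). Col6a1 had 26 and 14 counts in caNIK cells, against 27 and 67 in control cells (-1.04 ± 0.70). For Col6a2 and Col6a3 the control libraries held both the lowest and the highest value, so the groups overlapped. Col6a4 had 0 and 1 counts in caNIK libraries and 12 and 10 in control libraries, and its summed counts give a control over caNIK ratio of 20.3 with an exact 95% counting interval of 3.27 to 836. Col6a5 had 3 counts in all, in control replicate 2, and Col6a6 had 1, in caNIK replicate 1.

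The remaining collagens were near the detection limit. Col7a1, of the anchoring fibrils of skin, had 46 and 21 counts in caNIK HSPC and 18 and 16 in control HSPC (1.103 ± 0.72; edgeR adjusted p = 0.33). The transmembrane genes Col17a1 (27 and 22 counts in caNIK, 40 and 34 in control) and Col23a1 (18 and 4 in caNIK, 4 and 21 in control) did not pass. Col13a1 had 9 counts in each group and Col25a1 1 count in all. Col28a1 had 5 counts, all in control replicate 2, and Col26a1 had 0 in all 4 libraries.

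For a rough comparison between genes, levels were divided by the joined length of all exons annotated in GENCODE M21. That length can exceed the transcripts that were counted, so the order of genes is approximate. It was 12426 bases for Col1a2, at a mean of 4.54 CPM per kilobase in caNIK HSPC, against 6563 bases for Col1a1. By this measure the highest mean levels in caNIK HSPC were 12.8 CPM per kilobase for Col1a1, 9.75 for Col14a1 and 9.18 for Col18a1. In control HSPC the highest were 8.14 CPM per kilobase for Col4a2 and 6.60 for Col4a1, with Col1a1 at 0.308 and 9.71 in control replicates 1 and 2. Col14a1 had 0.0896 CPM per kilobase in control cells. Summed over all 44 genes, collagen made up 517 and 402 CPM in caNIK libraries, against 180 and 333 CPM in control libraries. Without Col1a1 and Col1a2 the sums were 342 and 296 CPM in caNIK libraries, against 174 and 233 CPM in control libraries. In both sums the caNIK libraries lay above the controls, but both sums held the genes called higher. Col14a1 had 78.8 and 57.9 CPM in caNIK libraries, Col12a1 39.1 and 31.4 CPM, and Col5a2 26.1 and 64.6 CPM. The 6 type IV genes, of which Col4a1 and Col4a2 made up most, summed lower in caNIK libraries. They had 66 and 41.5 CPM in caNIK libraries, against 96.7 and 111 CPM in control libraries. Col4a5 of that set and Col18a1, also of basement membranes, lay higher in both caNIK libraries. The sums therefore do not show a rise of collagen genes in general. With 2 libraries a group no test of these sums was made.

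Genes that process or cross-link collagen moved in both directions. Of 34 listed, 27 were tested, 5 were higher (18.5%, background 13.8%) and 4 lower (14.8%, background 8.21%), with a median log2 fold change of -0.15. Loxl4, a lysyl oxidase that cross-links collagen, had 8.21 and 20.0 CPM in caNIK HSPC, against 0.881 and 0.894 CPM in control HSPC (3.98 ± 0.56). Creb3l1, a transcription factor that drives collagen genes in osteoblasts, had 19.8 and 8.96 CPM in caNIK cells, against 1.61 and 0.809 CPM in control cells (3.58 ± 0.57). Adamts14, which cuts the N-terminal propeptide off fibrillar procollagen, had 15.0 and 9.40 CPM in caNIK cells, against 1.61 and 0.852 CPM in control cells (3.32 ± 0.50). The groups lay apart for all of these (edgeR adjusted p from 0.0041 to 0.0069). The other higher genes, named after their values were seen, were the C-propeptidase gene Bmp1 (2.05 ± 0.23) and Loxl2 (1.47 ± 0.34). Lower genes were Adamts3 (-1.19 ± 0.27), the lysyl hydroxylase gene Plod3 (-1.06 ± 0.23), Crtap, part of the prolyl 3-hydroxylase complex (-1.01 ± 0.19), and, named after its value was seen, the collagen galactosyltransferase gene Glt25d1 (-0.61 ± 0.15). The number of lower genes was 1 without caNIK replicate 2 or without control replicate 2, and 2 without control replicate 1. Serpinh1, the collagen chaperone of the endoplasmic reticulum, had 4.94 and 4.05 CPM in caNIK cells, against 4.15 and 9.11 CPM in control cells, and did not pass.

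Among collagen receptors 10 of 12 were tested, 2 were higher (20.0%, background 13.8%) and 0 lower (background 8.21%), with a median log2 fold change of 0.73; 0 lower was also the count in DESeq2 and at each other setting tried, and 0 were lower at an unadjusted p under 0.05. Mrc2, the endocytic receptor that takes up collagen fragments, had 54.7 and 30.9 CPM in caNIK HSPC, against 1.19 and 0.809 CPM in control HSPC (5.42 ± 0.41, SE; edgeR adjusted p = 0.00046). Itga11, an integrin chain that binds type I fibrils, had 3.33 and 4.82 CPM in caNIK cells, against 0.311 and 0.0426 CPM in control cells (4.54 ± 0.89, SE; edgeR adjusted p = 0.014), and did not pass without caNIK replicate 2. Itgb1, the shared beta chain of these integrins, had 308 and 422 CPM in caNIK cells and 357 and 354 CPM in control cells (0.04 ± 0.18). Of 19 genes of collagen breakdown and its inhibitors 12 were tested, 1 was higher and 1 lower (8.33% each, background 13.8% higher and 8.21% lower), with a median of 0.32. Timp3, a metalloproteinase inhibitor, had 60.0 and 76.5 CPM in caNIK cells, against 3.89 and 10.1 CPM in control cells (3.27 ± 0.43, SE; edgeR adjusted p = 0.0033). The gelatinase gene Mmp2 had 1.61 and 1.64 CPM in caNIK cells, against 11.3 and 7.71 CPM in control cells (-2.54 ± 0.43, SE; edgeR adjusted p = 0.0081). Higher breakdown genes numbered 2 without caNIK replicate 1 or without control replicate 2, and lower ones 2 without control replicate 1.

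**Figure D5:**
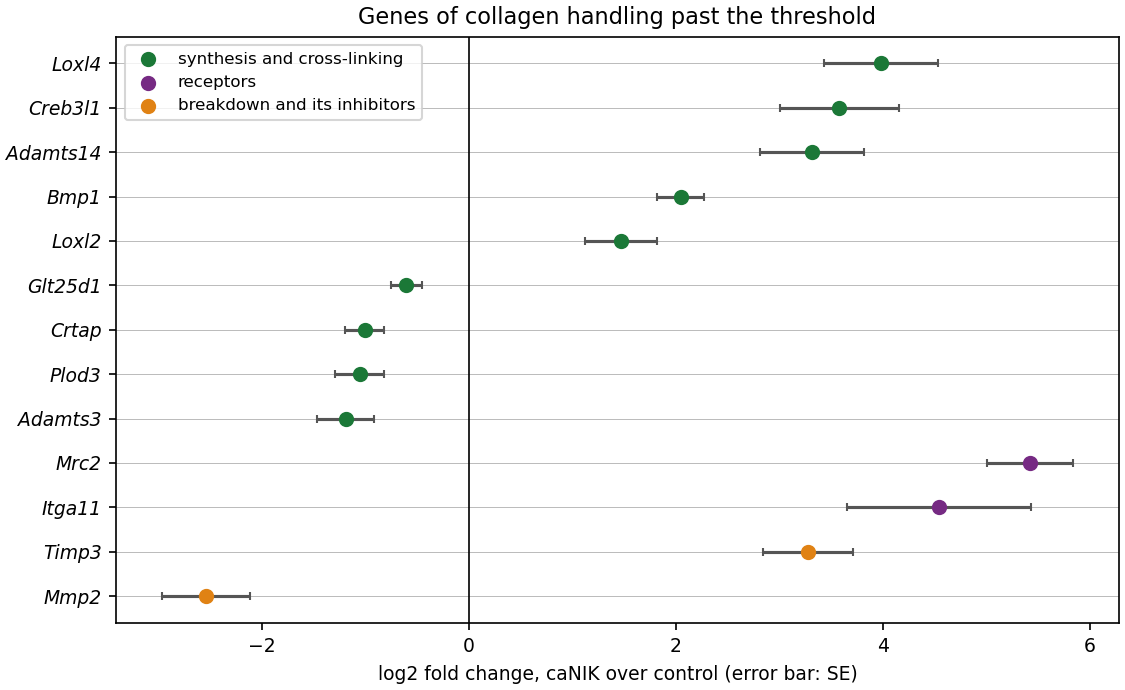
Log2 fold change of caNIK over control, with SE, for the genes of collagen synthesis and cross-linking, collagen receptors and collagen breakdown that passed the threshold. The genes stand on both sides of 0, from 5.42 for Mrc2 to -2.54 for Mmp2.

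Markers of stromal and endothelial cells did not move one way. Of 31 tested, 2 were higher (6.45%, background 13.8%), 3 lower (9.68%, background 8.21%) and 26 did not pass, with a median log2 fold change of 0.15. Fn1, fibronectin, a matrix protein that stroma and myeloid cells make and that fibrillar collagen assembles on, had 224 and 302 CPM in caNIK HSPC, against 14.8 and 18.7 CPM in control HSPC (3.98 ± 0.23, SE; edgeR adjusted p = 0.00020). The cartilage matrilin gene Matn1 had 167 and 32 counts in caNIK cells and 0 in both control libraries, at least 72.0-fold higher against 3 counts over the group, and did not pass without caNIK replicate 1 (edgeR adjusted p = 0.052). Acan, aggrecan of cartilage, went the other way with 0 counts in both caNIK libraries, against 29 and 50 in control libraries, and was at least 24.3-fold lower. Postn, a matrix protein that binds type I collagen, had 0.859 and 0.675 CPM in caNIK cells, against 17.7 and 10.6 CPM in control cells (-4.20 ± 0.47, SE; edgeR adjusted p = 0.0016). Emcn, a sialomucin of endothelium and stem cells, was also lower (-6.65 ± 0.61). Summed chondrocyte markers were 12.7 and 4.14 CPM in caNIK libraries, against 2.54 and 3.32 CPM in control libraries. Of these sums Matn1 alone made up 8.96 and 1.54 CPM in caNIK libraries and 0 in control libraries. Sox9, Hapln1 and Comp also lay higher in both caNIK libraries, at low levels. Acan was higher in control libraries, as were Col2a1 and Col10a1. Endothelial markers summed to 121 and 81.8 CPM in caNIK libraries, against 155 and 192 CPM in control libraries. Pecam1 was the largest part, with 63.7 and 33.1 CPM in caNIK libraries, against 83.1 and 75.9 CPM in control libraries. Tek, Emcn and Cldn5 were also lower in both caNIK libraries. Cdh5, Kdr, Vwf, Flt4 and Stab2 overlapped between the groups, and Plvap lay higher in both caNIK libraries. The endothelial sum does not measure endothelial cells alone, since Emcn, also a gene of stem cells, had 20.8 and 15.7 CPM in control libraries. Mesenchymal markers summed to 304 and 365 CPM in caNIK libraries, against 101 and 134 CPM in control libraries. Without Fn1 the sums were 79.8 and 62.8 CPM in caNIK libraries, against 86.5 and 116 CPM in control libraries. They still held Postn, with 0.859 and 0.675 CPM in caNIK libraries, against 17.7 and 10.6 CPM in control libraries. They therefore give no direction for the other mesenchymal markers. Smooth muscle markers summed to 7.57 and 8.29 CPM in caNIK libraries, against 4.51 and 2.002 CPM in control libraries, and osteoblast markers to 17.1 and 9.01 CPM in caNIK libraries, against 9.18 and 11.8 CPM in control libraries. Their part in the collagen differences was not tested. Higher markers numbered 1 without caNIK replicate 1, 5 without control replicate 1 and 4 without control replicate 2, and lower markers 6 without caNIK replicate 1 and 5 without control replicate 1. Of 6 epithelial markers, Krt5 and Krt14 were at 0 in all libraries and Krt18 was lower (-3.40 ± 0.34).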

How the data were processed

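RNA-seq was made from total RNA of sorted HSPC, per the labels' protocols, in 2 caNIK and 2 control libraries grouped by their titles. The authors deposited whole-number read counts per gene symbol, without normalization, per the file headers and values. Tools listed in the submitters' processing notes, without role or order, are TopHat2 2.1.0, featureCounts 1.5.0, DESeq2 1.10.1 and FastQC, with the build mm9; annotation release, strand setting and treatment of multi-mapping reads: not given in the sources used here.

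Counts were fitted in R 4.3.3 with edgeR 4.0.16: filterByExpr (14191 genes kept), TMM scaling, glmQLFit with group alone and the two-sided glmQLFTest, with Benjamini-Hochberg adjustment over all genes tested and a threshold of 0.05. SE was taken from the F statistic. Levels are CPM on TMM-scaled totals. Ratio intervals and bounds against 3 counts cover counting error only. The script was also tested on simulated data with known changes. No library was a repeat of another within counting noise (chi-square divided by its degrees of freedom: 36.8 for the caNIK pair, 20.5 for the control pair). Alternatives were DESeq2 1.42.0, median-of-ratios factors, no low-count filter, a replicate block and each library left out in turn.

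The collagen genes, the companion and marker lists and the tests were chosen with earlier results of these data known. The naming rule took every collagen gene past the threshold, at 1 CPM or more on average in either group, or sharing a trimer with such a gene, and up to 3 rises and 3 falls per companion list. Exon lengths (GENCODE M21), gene order and promoters (RefSeq) are of GRCm38, not mm9; all 44 genes matched an exon length.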

Additional observations from a re-analysis of the deposited data

How the results depend on the processing

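The calls of Col14a1, Col12a1, Col5a2 and Col18a1 as higher and of Col10a1 and Col4a2 as lower held in DESeq2, with median-of-ratios factors, with no low-count filter, with a replicate block and with each library left out, whereas Col2a1 lost its call in 3 of the 4 left-out fits. A fit without 1 library assumes that the lone sample of its group varies like the other group. With a library left out, higher collagen genes numbered 4 to 9, the 9 without control replicate 2, and lower ones 2 to 4. The same fits gave 1 to 5 lower synthesis genes, 1 to 3 higher receptor genes, 1 to 2 higher and 1 to 2 lower breakdown genes, and 1 to 5 higher and 3 to 6 lower stromal and endothelial markers. With no low-count filter those markers were 4 higher and 5 lower. Same-numbered libraries deviated from their group means with a correlation of 0.255 over genes, but with 2 pairs they share only a number; with the replicate block 4260 genes were called, 4 collagen genes were higher and 4 lower, Col4a1 now among them (-0.88, edgeR adjusted p = 0.032), breakdown genes higher numbered 2, markers lower numbered 5, and collagen log2 fold changes turned sign to 0.33 for Col5a1, 0.33 for Col11a1 and 0.10 for Col5a3. Over the left-out fits, uncalled genes whose sign turned ran over -0.78 to 2.37 (Col6a3); -1.19 to 1.73 (Col6a2); -0.91 to 1.67 (Col5a1), and -0.31 to 0.86 (Col9a3), -1.35 to 2.94 (Col11a1), -0.067 to 2.50 (Col9a2), -0.71 to 1.20 (Col5a3). The cause was not tested. The difference in summed collagen CPM, caNIK minus control, was 203, 152 without Col1a1, and 127 to 280 with a library left out. Depth limited the test to 29 of the 44 collagen genes, since the other 15 had too few counts.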
